A study of Mus musculus with 32 samples.

Results

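A set of 9 mouse interferon-stimulated genes was followed across the 32 libraries of the series: Ifit1, Ifit2, Ifit3, Ifitm3, Bst2, Isg15, Usp18, Irf7 and Oasl2. They were chosen by symbol, as the 9 rows of the deposited exon count table that carry these names, out of 24411 genes. Each of the 9 had 1 row.

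Type I interferons are secreted proteins that bind the paired receptor chains Ifnar1 and Ifnar2. The kinases Jak1 and Tyk2 then phosphorylate transcription factors of the STAT family, which join Irf9 and enter the nucleus, where the complex binds the interferon-stimulated response element, a promoter motif built from repeated GAAA cores. The genes under its control limit viruses at many steps, and several of them feed back on the pathway. In brain, microglia and border macrophages carry the receptors, and microglia with raised interferon-stimulated genes are known from infection, ageing and neurodegeneration.

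The study compared 2 mouse lines in which tamoxifen-activated Cre recombinase (CreER) switches on an HA tag on the ribosomal protein Rpl22, so that ribosomes of the recombined cells and the mRNA on them can be pulled down with an antibody to HA. The genotypes were Cx3cr1-CreER:RPL22-HA, driven from the locus of the fractalkine receptor gene, and Sall1-CreER:RPL22-HA, driven from the locus of a transcription factor gene of microglia, each in 4 C57BL/6 mice. Mice of both lines were gavaged with 5 mg tamoxifen on alternate days, 4 times in all, from an age of 4 to 6 weeks, so no group lacked tamoxifen, CreER or the tag allele. Every brain was split 4 ways: a precipitate of whole-brain homogenate with anti-HA (HA), the same with a mouse IgG1 isotype antibody (IgG), total RNA of sorted microglia (Sort) and an anti-HA precipitate of sorted microglia (SortIP). Libraries were made from polyA RNA, and sorted cells had gone through enzymatic digestion of the brain and a Percoll gradient, while the homogenates had been made in cycloheximide. The 4 replicates of a group are 4 mice, numbered 1 to 4 in the Cx3cr1 line and 7, 9, 17 and 21 in the Sall1 line.

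For the 8 sorted libraries of the Cx3cr1 line the labels contradict each other, since the titles and the column names of the table swap sorted total RNA and sorted precipitate. They were grouped by title here, and the comparisons of members that use them are also given by the column names or from the sum of both sorted libraries of a mouse, which needs neither. Summed CPM, counts divided by the total of the library and scaled to 1e6, of 18 microglia markers averaged 91613 in the libraries titled Sort and 71446 in those titled SortIP in the Cx3cr1 line, against 70836 in Sort and 92154 in SortIP in the Sall1 line. Nuclear-retained RNAs averaged 1069 and 2990 CPM in the titled Sort and SortIP libraries of the Cx3cr1 line, and 3120 and 1079 CPM in Sort and SortIP of the Sall1 line. By both means, titled Sort of the Cx3cr1 line lay nearer to SortIP than to Sort of the Sall1 line. Titled SortIP of the Cx3cr1 line lay nearer to Sort of the Sall1 line, which is the order of the column names. Which labels are right was not tested.

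Libraries held between 249881 and 4047465 counts in genes, and the HA precipitates of the Cx3cr1 line were shallow, at 286418 to 574671. Summed microglia markers ran from 74136 to 86657 CPM in the HA precipitates of the Cx3cr1 line and from 66696 to 97226 CPM in the sorted libraries, but from 5303 to 6376 CPM in the HA precipitates of the Sall1 line and from 976 to 1656 CPM in the IgG precipitates. Summed astrocyte markers (13 genes) ran from 14223 to 16967 CPM in the HA precipitates of the Sall1 line and from 1331 to 1667 CPM in those of the Cx3cr1 line. Summed oligodendrocyte markers (10 genes) ran from 10355 to 12674 and from 1512 to 2196 CPM in the same 2 groups. In these bulk libraries, fewer cells of a type and less RNA per cell cannot be told apart.

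The promoters are shown because the members are defined by how they are switched on. Of the 9 members, 8 are in the RefSeq promoter table (GRCm38.p6; 250 bases before to 50 after each annotated start), and Usp18 is not. A search for GAAANNGAAA on either strand, which reads TTTCNNTTTC on the other strand, matched 5 of the 8 members and 1079 of the 27025 genes of the table (3.99%). The stretches with matches read, 5′ to 3′ on the strand of the gene and with the matches in capitals:
Ifit1, chr19:34640773-34640825 (+): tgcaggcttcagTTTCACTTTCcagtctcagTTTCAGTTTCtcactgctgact
Ifit3, chr19:34583361-34583428 (+): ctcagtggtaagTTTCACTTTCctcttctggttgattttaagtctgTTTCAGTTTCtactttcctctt
Bst2, chr8:71537575-71537614 (-): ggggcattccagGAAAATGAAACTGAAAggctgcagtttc
Isg15, chr4:156200863-156200908 (-): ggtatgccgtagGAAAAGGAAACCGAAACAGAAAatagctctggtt
Ifitm3, chr7:141010716-141010742 (-): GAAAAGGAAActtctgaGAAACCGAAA

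Ifit1 and Ifit3 each held 2 separate copies, 104 and 85 bases before the start in Ifit1. Bst2 held 2 overlapping matches and Isg15 held 3. In Ifitm3 both matches lay just after the annotated start, at bases 3 and 20 of the transcript. No match was found in the windows of Ifit2, Irf7 and Oasl2, which says only that these letters are not in those 300 bases. A match is a description of the sequence and not a bound site.

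In the mm9 coordinates of the deposited table, Ifit2, Ifit3 and Ifit1 lie on the plus strand in 1 cluster on chromosome 19 (34625184 to 34651024, 34658019 to 34663472, and 34715379 to 34724499), which also holds Ifit1bl1, Ifit3b and Ifit1bl2. Ifitm3 (7: 148195489 to 148196643, minus strand) stands in a cluster with Ifitm5, Ifitm2, Ifitm1 and Ifitm6. Bst2 is at 8: 74058161 to 74061336 (minus), Isg15 at 4: 155573533 to 155574927 (minus), Usp18 at 6: 121195924 to 121220935 (plus), Irf7 at 7: 148449082 to 148452323 (minus) and Oasl2 at 5: 115346943 to 115362254 (plus). How reads that match several copies of a gene, or their strand, were counted is not stated in these sources, so values of Ifit and Ifitm genes are uncertain by whatever their paralogs share with them. Exon lengths range from 644 bases for Ifitm3, 752 for Isg15 and 759 for Bst2 to 3128 for Oasl2 and 3944 for Ifit2.

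The 9 genes together took up a small part of each library. Their summed level was 770 ± 142 CPM (SD, n = 4 here and below) in the HA precipitates of the Cx3cr1 line, 684 ± 137 in its titled Sort and 639 ± 133 in its titled SortIP libraries. In the Sall1 line the sum was 545 ± 35.4 CPM in Sort, 665 ± 102 in SortIP and 186 ± 18.3 in HA. The IgG precipitates held 106 ± 25.4 CPM in the Cx3cr1 line and 95.7 ± 14.7 CPM in the Sall1 line, the lowest of the 8 groups. Per kilobase of exon, Bst2 was the most abundant member in 7 of the 8 groups, while in IgG of the Sall1 line Ifitm3 averaged 31.7 and Bst2 29.6 CPM per kb. In the HA precipitates of the Cx3cr1 line it reached 625 ± 106 CPM per kb, against 155 ± 71.8 for Isg15, 118 ± 42.8 for Ifitm3, 22.8 ± 6.48 for Irf7 and 18.3 ± 2.48 for Ifit3.

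Bst2 (tetherin, a membrane protein that holds budding virus particles on the cell surface) stood at 392, 459, 585 and 461 CPM in the HA precipitates of Cx3cr1 mice 1 to 4 and at 22.7, 17.4, 21.5 and 12.6 CPM in their IgG precipitates. In Sall1 mice 7, 9, 17 and 21 it stood at 80.2, 96.4, 87.6 and 89.5 CPM in HA and at 29.8, 22.2, 13.4 and 24.4 CPM in IgG. HA and IgG did not overlap in either line, and the HA precipitates of the 2 lines did not overlap with each other. Sorted cells of the Cx3cr1 line ran by title from 261 to 369 CPM in Sort and from 221 to 332 in SortIP, and those of the Sall1 line from 263 to 301 in Sort and from 316 to 489 in SortIP. In the order of group means the first 5 groups, from HA of the Cx3cr1 line (474 ± 80.7) to its titled SortIP libraries (279 ± 61.1), overlapped each with the next. HA of the Sall1 line (88.4 ± 6.65) came below them and above both IgG groups without overlap.

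Ifitm3, an endosomal membrane protein that blocks virus entry, was at 62.6, 64.2, 117 and 59.4 CPM in HA of Cx3cr1 mice 1 to 4 and at 14.1, 9.31, 14.8 and 11.7 CPM in IgG. Its HA level in Sall1 mice 7, 9, 17 and 21 was 32.2, 38.1, 32.1 and 38.3 CPM, and its IgG level 34.1, 20.8, 11.04 and 15.9 CPM. Sall1 precipitates therefore overlapped, through the IgG library of mouse 7, while those of the Cx3cr1 line did not. The 4 sorted groups lay close together, with means from 47.3 ± 7.91 to 52.1 ± 13.9 CPM.

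Isg15 encodes a ubiquitin-like protein that is attached to other proteins. It measured 73.1, 82.6, 119 and 192 CPM in HA of Cx3cr1 mice 1 to 4 and 10.0, 11.3, 14.8 and 9.55 CPM in IgG. Sall1 mice 7, 9, 17 and 21 gave 17.9, 27.8, 35.4 and 20.8 CPM in HA and 12.8, 13.6, 9.37 and 11.3 CPM in IgG. Both lines separated HA from IgG without overlap, and the lowest Cx3cr1 HA library was above the highest Sall1 HA library. Sorted cells of the Cx3cr1 line averaged 78.2 ± 22.5 CPM by title in Sort and 70.6 ± 18.0 CPM in SortIP, and those of the Sall1 line 38.1 ± 3.73 and 43.9 ± 20.8 CPM.

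Usp18, the protease that takes Isg15 off its targets and also damps signalling at the receptor, was low in every homogenate precipitate. It had 4, 1, 7 and 0 counts in HA of Cx3cr1 mice 1 to 4, a mean of 6.52 ± 6.97 CPM, and 3.87 ± 2.88 CPM in IgG. Sall1 precipitates held 2.29 ± 0.583 CPM in HA and 3.52 ± 1.04 CPM in IgG. Across the sorted groups its means ran from 26.0 ± 4.41 to 40.7 ± 20.0 CPM, with no overlap with any homogenate group.

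Irf7, the transcription factor that drives interferon genes once the pathway is active, was at 34.8, 30.6, 57.4 and 45.4 CPM in HA of Cx3cr1 mice 1 to 4 and at 11.4, 12.95, 13.01 and 14.8 CPM in IgG. In Sall1 mice 7, 9, 17 and 21 it was at 4.22, 5.14, 5.76 and 5.29 CPM in HA and at 2.84, 9.14, 5.69 and 11.9 CPM in IgG. The Sall1 HA precipitates thus lay within the range of their own IgG background. Sort and SortIP averaged 42.3 ± 5.27 and 50.7 ± 15.7 CPM by title in the Cx3cr1 line and 47.0 ± 6.40 and 31.6 ± 15.9 CPM in the Sall1 line.

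The 3 Ifit genes encode cytoplasmic proteins that bind RNA or each other, with Ifit1 blocking translation of RNA whose cap lacks the host's methylation. Ifit3 measured 34.8, 30.6, 39.0 and 41.9 CPM in HA of Cx3cr1 mice 1 to 4 against 12.7, 17.4, 19.7 and 12.6 CPM in IgG. Sall1 mice 7, 9, 17 and 21 had it at 14.8, 20.1, 21.8 and 34.0 CPM in HA against 8.52, 13.1, 10.7 and 7.93 CPM in IgG, again without overlap. Its sorted means were 29.2 to 49.8 CPM.

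Ifit1 took the reverse order: it was lowest in HA precipitates. HA libraries of Cx3cr1 mice 1 to 4 held 1, 0, 0 and 1 counts, where IgG held 24, 4, 42 and 38. HA libraries of Sall1 mice 7, 9, 17 and 21 held 0, 3, 0 and 1 counts, where IgG held 7, 29, 33 and 19. In CPM the means were 1.31 ± 1.67 in HA and 12.0 ± 7.66 in IgG of the Cx3cr1 line, and 0.404 ± 0.608 in HA and 9.73 ± 1.77 in IgG of the Sall1 line. Sorted microglia of the Cx3cr1 line held Ifit1 at 45.5 ± 18.3 CPM by title in Sort and 33.3 ± 6.95 in SortIP, and those of the Sall1 line at 15.9 ± 5.74 and 23.8 ± 7.27 CPM.

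Ifit2 and Oasl2, the latter a member of the oligoadenylate synthetase family of RNA sensors, were also mainly measured in sorted cells. Ifit2 averaged 7.63 ± 5.28 CPM in HA and 10.4 ± 4.25 in IgG of the Cx3cr1 line, 4.23 ± 0.925 and 7.70 ± 1.77 in the Sall1 line, and from 24.5 ± 6.21 to 44.8 ± 7.48 CPM in the sorted groups. Oasl2 averaged 8.84 ± 3.78 and 8.27 ± 5.09 CPM in HA and IgG of the Cx3cr1 line, 2.65 ± 1.2 and 2.67 ± 1.80 in the Sall1 line, and 25.2 to 28.1 CPM in the sorted groups. For Ifit2 no sorted library overlapped with a homogenate library. For Oasl2 the IgG library of Cx3cr1 mouse 3, at 15.7 CPM, lay above the lowest sorted libraries (14.5 CPM in Sort of the Sall1 line, 14.7 and 14.8 CPM in the titled SortIP and Sort libraries of the Cx3cr1 line).

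**Figure D1:**
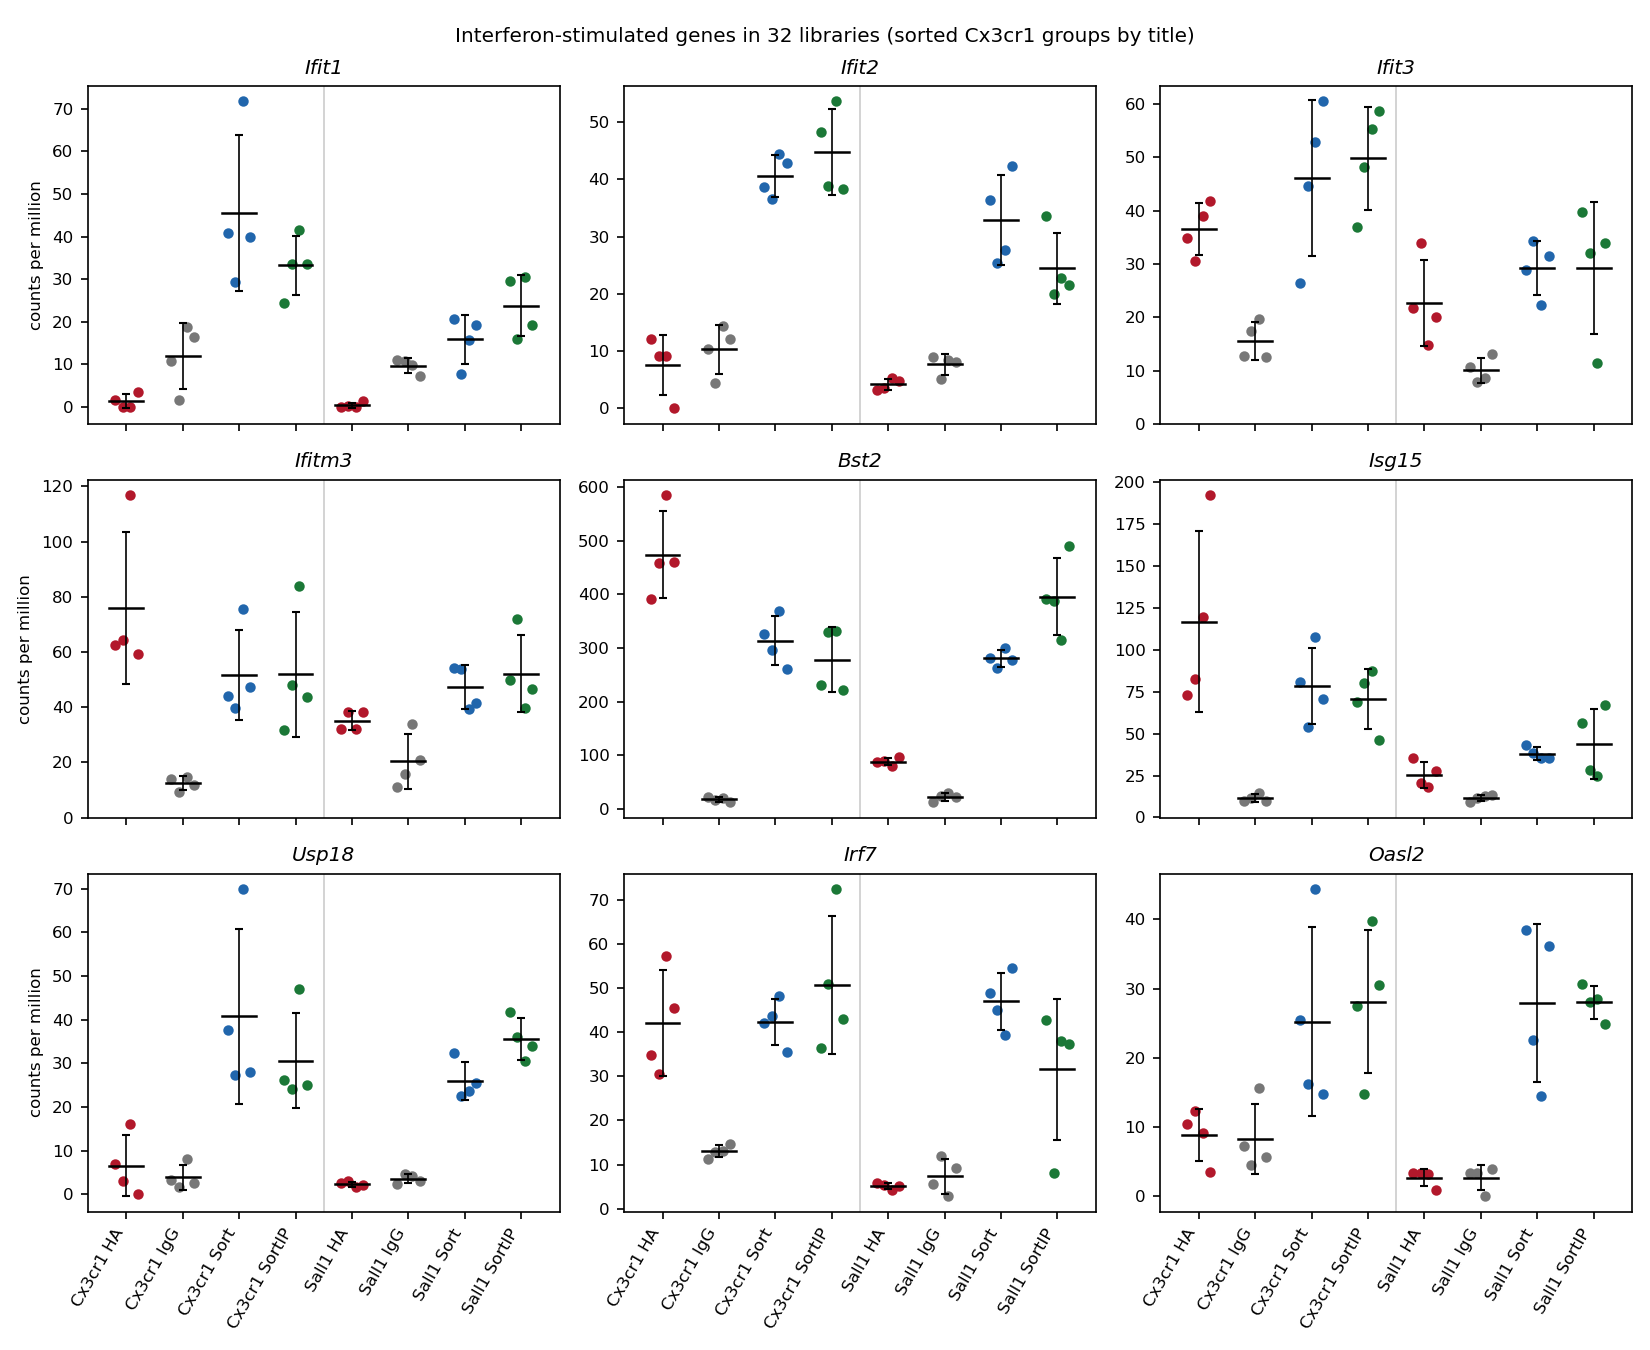
Level of each member in CPM (linear axis from 0, a panel for each gene) in the 8 groups. Points are libraries and the line with its bar is the mean ± SD of 4 mice. Bst2, Ifitm3 and Isg15 have their highest means in HA of the Cx3cr1 line. Ifit1, Ifit2, Ifit3, Usp18, Irf7 and Oasl2 have theirs in sorted cells, and Ifit1 has its lowest means in the HA groups.

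What the HA tag brought down over the IgG background was asked first, in each line. In the Cx3cr1 line 5 of the 7 members tested were higher in HA than in IgG and none was lower by edgeR's quasi-likelihood test (Benjamini-Hochberg adjusted p under 0.05 over all genes), where 28.6% of the 10021 genes tested were called higher. Of these, Bst2 led with a log2 fold change of 5.07 ± 0.24 (SE; adjusted p = 4.38e-11), before Isg15 at 3.71 ± 0.32 (5.3e-08), Ifitm3 at 3.01 ± 0.30 (2.83e-07), Irf7 at 2.08 ± 0.30 (1.63e-05) and Ifit3 at 1.62 ± 0.29 (0.000184). Oasl2 (0.55 ± 0.54, adjusted p = 0.375) and Ifit2 (0.11 ± 0.55, adjusted p = 0.865) were not called. Over the 7 members the median log2 fold change was 2.08, and over all genes tested it was -0.28, with 36.0% called lower. Ifit1 and Usp18 did not pass the filter on low counts; their pooled counts give an IgG level 9.53 times the HA level for Ifit1 (95% counting interval 2.57 to 79.7) and an HA level 1.94 times the IgG level for Usp18 (0.919 to 3.83). Counting intervals cover counting error only, since reads without molecular identifiers are not independent molecules.

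In the Sall1 line 4 of the 7 members tested were higher in HA and 1 was lower, where 35.2% of the 11545 genes tested were called higher and 36.1% lower. The higher ones were Bst2 (2.46 ± 0.21, adjusted p = 1.52e-08), Isg15 (1.54 ± 0.26, 3.93e-05), Ifit3 (1.53 ± 0.28, 9.74e-05) and Ifitm3 (1.32 ± 0.27, 0.000278). Ifit1 was lower, with a fitted value of -3.99 ± 0.59 (adjusted p = 9.3e-06, edgeR) from 4 HA counts in all, and a pooled IgG level 22.4 times the HA level (8.45 to 84.1). It passed the filter on low counts only through its IgG level. Ifit2 (-0.48 ± 0.34, adjusted p = 0.214) and Irf7 (-0.21 ± 0.36, adjusted p = 0.612) were not called, and Usp18 and Oasl2 were not tested; their HA levels were 0.752 (0.417 to 1.34) and 0.797 (0.456 to 1.38) times the IgG levels from pooled counts. The median was 1.32 over the 7 members and -0.03 over all genes. As a check of the labels, Cx3cr1 itself had log2 fold changes of 3.88 and 0.69 in the Cx3cr1 and Sall1 lines, Sall1 had 3.52 and 1.38, and the tagged Rpl22 had 1.56 and 1.63.

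Exon length moved with these fold changes across genes: Spearman's rho between length and log2 fold change was -0.368 in the Cx3cr1 line and -0.527 in the Sall1 line, over genes, which are not independent replicates. The members called higher are among the shorter ones. With a length adjustment and the mouse as a replicate block, all 5 calls of the Cx3cr1 line stayed (Bst2 4.19, Isg15 2.79, Ifitm3 2.03, Irf7 1.84 and Ifit3 1.46). Of the Sall1 calls Bst2 (1.22, adjusted p = 2.31e-05) and Ifit3 (1.16, 0.000827) stayed higher, while Isg15 (0.30, adjusted p = 0.329) and Ifitm3 (-0.00, adjusted p = 0.989, edgeR) were not called. Without TMM scaling the median over all genes shifted by -0.42 and -0.41 in the 2 lines, and the calls split into 2102 higher and 4749 lower in the Cx3cr1 line (2862 and 3603 with TMM) and 2869 and 5427 in the Sall1 line (4064 and 4166 with TMM). The 5 and 4 members called higher were called higher under that scaling too, and Ifit2 joined Ifit1 as lower in the Sall1 line (-0.89, adjusted p = 0.0235).

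**Figure D2:**
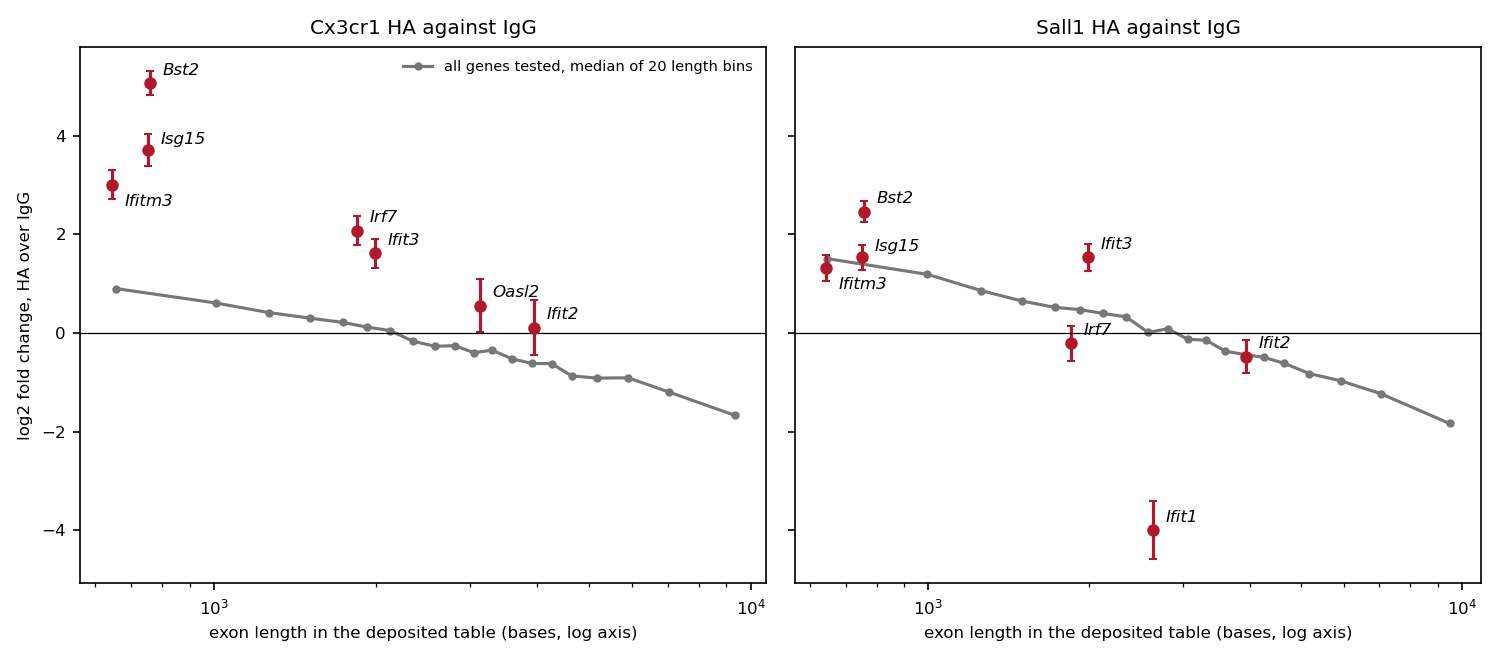
log2 fold change of HA over IgG (y axis) against exon length in bases (log x axis) in the Cx3cr1 line (left) and the Sall1 line (right). Red points with bars are members tested with their SE, and the grey line is the median of all genes tested in 20 bins of length; in the Sall1 line Isg15 (1.54) and Ifitm3 (1.32) sit on that line and Bst2 (2.46) and Ifit3 (1.53) above it.

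The enrichment of HA over IgG differed between the lines for 4 of the 9 members, each smaller in the Sall1 line, in a fit of the difference itself where 13.7% of 12308 genes were called lower in that line and 18.5% higher. The difference in log2 fold change, Sall1 line minus Cx3cr1 line, was -2.65 ± 0.30 for Bst2 (adjusted p = 1.85e-07), -2.33 ± 0.45 for Irf7 (0.000264), -2.22 ± 0.41 for Isg15 (0.000133) and -1.75 ± 0.40 for Ifitm3 (0.00142). The other 5 were not called, among them Ifit3 at -0.12 ± 0.41 (adjusted p = 0.859; 95% interval -0.92 to 0.67) and Usp18 at -1.42 ± 0.85 (adjusted p = 0.223, edgeR). The median was -1.42 over the members and 0.15 over all genes. Microglia markers were lower and astrocyte and oligodendrocyte markers higher in HA of the Sall1 line than of the Cx3cr1 line, by the sums given above, and the part of these cells in the differences was not tested.

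Set directly against each other, HA precipitates of the Sall1 line were lower than those of the Cx3cr1 line for all 5 members that passed the filter, where 25.7% of 9092 genes were called lower. The log2 differences were -3.20 ± 0.31 for Irf7 (adjusted p = 1.93e-09), -2.61 ± 0.17 for Bst2 (2.08e-12), -2.34 ± 0.28 for Isg15 (2.16e-07), -1.31 ± 0.23 for Ifitm3 (3.09e-05) and -0.85 ± 0.29 for Ifit3 (0.0163). The Ifit3 call did not hold without the HA library of Cx3cr1 mouse 3 (-0.78, adjusted p = 0.0518), without TMM scaling (-0.66, 0.0577) or with all 8 groups in the fit (-0.46, 0.222, edgeR). Irf7, at a mean of 5.10 CPM in HA of the Sall1 line, passed the filter only through its level in the Cx3cr1 line. Ifit1, Ifit2, Usp18 and Oasl2 were not tested, and the 2 lines share no mice. In the IgG precipitates none of the 8 members tested differed between the lines, where 0.00863% of 11593 genes, 1 gene, were called higher (edgeR). Of these members 3 (Ifit3, Irf7 and Oasl2) had an unadjusted p under 0.05, all lower in the Sall1 line, as had 367 genes in all, and DESeq2 called 2 genes and 0 members.

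The homogenate precipitate was then compared with the precipitate of sorted microglia. These precipitates differ both in cell isolation and in the cells they hold, and the 2 cannot be told apart here. In the Cx3cr1 line the members split: 3 of the 8 tested were higher in the homogenate HA precipitate and 3 lower, where 32.6% and 37.5% of 8198 genes were called. Bst2 (1.00 ± 0.18, adjusted p = 5.71e-05), Isg15 (0.92 ± 0.27, 0.00504) and Ifitm3 (0.78 ± 0.30, 0.0248) were higher in HA. Ifit1 (-4.38 ± 0.59, adjusted p = 1.28e-06), Ifit2 (-2.16 ± 0.39, 4.69e-05) and Usp18 (-1.84 ± 0.48, 0.00205) were lower in HA and so higher in sorted cells, while Ifit3 (-0.21 ± 0.24) and Irf7 (-0.04 ± 0.27) were not called. Ifit1, Ifit2 and Usp18 averaged 1.31, 7.63 and 6.52 CPM in HA. They passed the filter on low counts through their levels in sorted cells, so they entered the test because they were higher there. From pooled counts Ifit1 was 27.1 times as high in the sorted precipitate (7.40 to 226). Oasl2 was not tested, and its HA libraries (mean 8.84 CPM) all lay below the titled SortIP libraries (mean 28.1 CPM). The medians over the members and over all genes were both -0.12.

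Grouping the sorted libraries by column name kept the 6 calls and their directions, with 31.9% and 36.2% of genes called higher and lower, at 0.71 for Bst2, 0.64 for Isg15, 0.67 for Ifitm3, -4.92 for Ifit1, -2.11 for Ifit2 and -2.36 for Usp18. With the length adjustment and replicate block Bst2 stayed higher at 0.41 (adjusted p = 0.0376), but Isg15 (0.29, adjusted p = 0.297) and Ifitm3 (0.17, adjusted p = 0.538) were no longer called (edgeR). The Ifitm3 call also did not hold without the HA library of mouse 3 (0.50, adjusted p = 0.157) or the titled SortIP library of mouse 1 (0.55, adjusted p = 0.0916). Without TMM scaling, by title, 2 members were called higher (3 with TMM) and 3 lower, and the median over all genes shifted by -0.24.

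In the Sall1 line 7 of 9 members were lower in the homogenate HA precipitate than in the sorted precipitate and none was higher, where 37.8% of 10494 genes were called lower and 42.4% higher. The sizes were -5.52 ± 0.51 for Ifit1 (adjusted p = 3.47e-12), -3.74 ± 0.34 for Usp18 (1.66e-12), -3.20 ± 0.36 for Oasl2 (3.67e-10), -2.61 ± 0.33 for Irf7 (4.81e-09), -2.46 ± 0.34 for Ifit2 (3.03e-08) and -2.01 ± 0.18 for Bst2 (9.31e-13). Ifit1, Usp18, Oasl2, Irf7 and Ifit2 averaged 0.404, 2.29, 2.65, 5.10 and 4.23 CPM in HA. They passed the filter on low counts only through SortIP, so they entered the test because they were higher there. Isg15 was called at -0.76 ± 0.28 (0.0133), but not without the SortIP library of mouse 17 (-0.61, adjusted p = 0.0878) or of mouse 9 (-0.53, adjusted p = 0.105) and not by DESeq2 (-0.58, adjusted p = 0.0944). Ifitm3 (-0.35 ± 0.23, adjusted p = 0.151) and Ifit3 (-0.26 ± 0.30, adjusted p = 0.43) were not called, though with the length adjustment and replicate block both were lower too (-1.58 and -0.77). The median was -2.46 over the members and 0.12 over all genes. Summed microglia markers averaged 5767 CPM in HA and 92154 CPM in SortIP of the Sall1 line, and astrocyte markers 15900 and 322 CPM. The parts of cell make-up and of cell isolation in the differences were not tested. These comparisons use the same HA libraries as those against IgG.

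**Figure D3:**
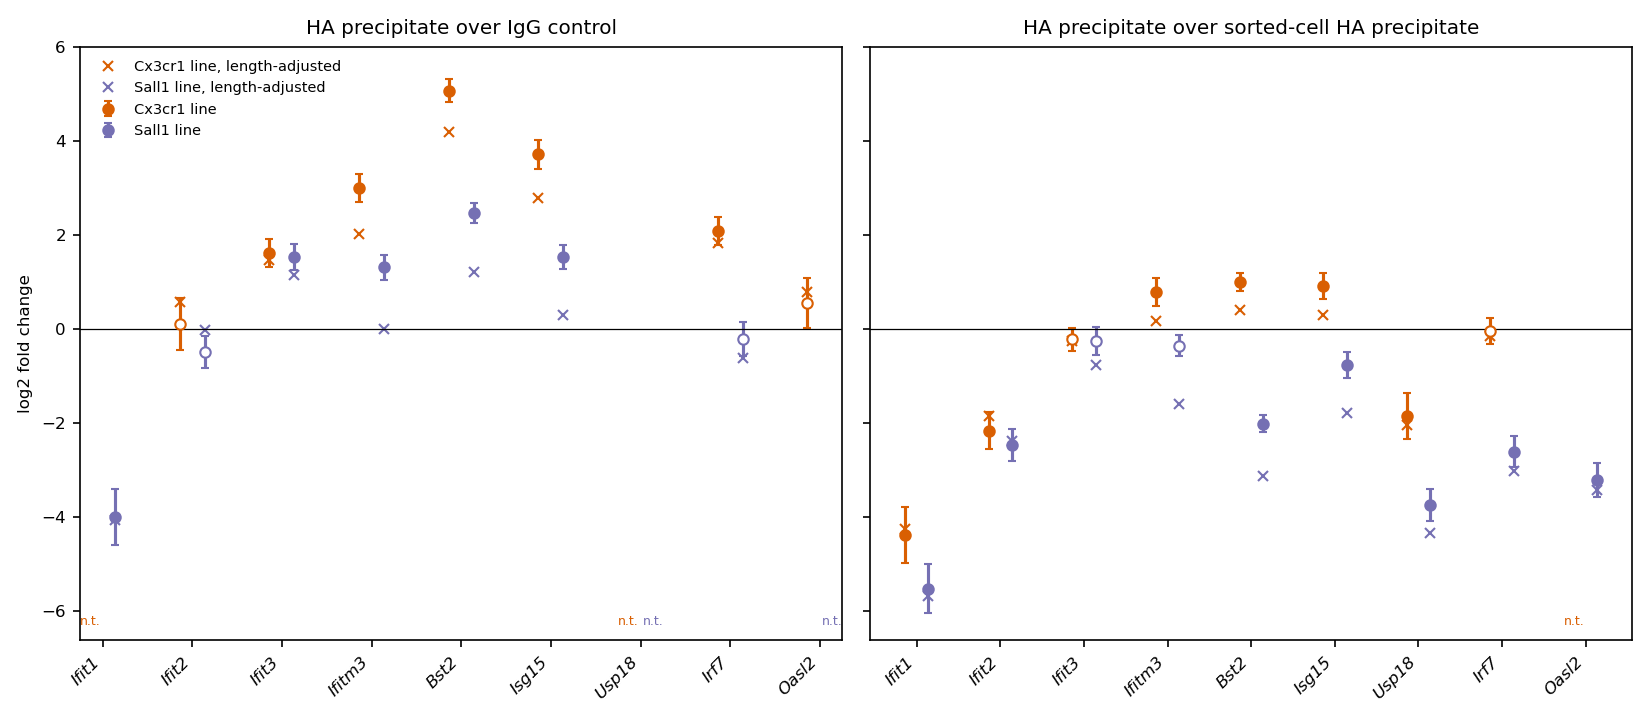
log2 fold change of each member (y axis) in the comparisons of HA with IgG (left) and HA with SortIP (right), with a colour for each line (Cx3cr1 and Sall1). Filled points passed the test, open points did not, bars are the SE, crosses are the fit with length adjustment and replicate block, and n.t. marks a member not tested; Ifit1, Ifit2 and Usp18 lie below 0 against SortIP in both lines, while Bst2 lies at 1.00 in the Cx3cr1 line and -2.01 in the Sall1 line.

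The paralogs of the members did not all follow them. Ifitm1 was at 17.4 ± 3.07 CPM in HA of the Sall1 line against 3.08 ± 2.91 CPM in HA of the Cx3cr1 line, and its group means in sorted cells were between 0 and 1.69 CPM. Its HA over IgG enrichment was larger in the Sall1 line by 3.00 ± 0.77 (adjusted p = 0.00372, edgeR), opposite in sign to Ifitm3. Ifitm1 passed the filter on low counts through HA of the Sall1 line, so it entered the test because it was higher there. Ifitm2 averaged 27.9 ± 6.97 CPM in HA of the Cx3cr1 line, 31.6 ± 11.4 CPM in HA of the Sall1 line and 2.42 to 6.42 CPM in the sorted groups, and was higher in HA than in SortIP by 3.57 (2.45 by column name) and 3.08 on the log2 scale in the Cx3cr1 and Sall1 lines. Against SortIP it passed the same filter through HA, where it was higher. Ifit3b, a close copy of Ifit3, had log2 fold changes of HA over IgG of 0.13 (not called) in the Cx3cr1 line and 0.89 (adjusted p = 0.0229) in the Sall1 line. Ifit1bl1 was listed at 0 in the 8 HA libraries and averaged 1.65 and 0.86 CPM in IgG of the Cx3cr1 and Sall1 lines, an order like that of Ifit1. Among the Oas genes, Oas2 had 1 count in the HA libraries of the Cx3cr1 line and averaged 15.1 and 33.0 CPM in its titled Sort and SortIP libraries, while Oas1g averaged 11.3 CPM in HA and 12.2 and 13.9 CPM in the same sorted groups. Oasl1, the paralog of Oasl2, averaged 6.11 CPM in HA of the Cx3cr1 line, 0.74 CPM in HA of the Sall1 line and 5.68 to 8.19 CPM in sorted cells.

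Within sorted microglia, ribosome-bound and total RNA were compared. In the Sall1 line 1 of the 9 members, Bst2, was higher in SortIP than in Sort (0.65 ± 0.15, adjusted p = 0.00791), where 5.45% of 8603 genes were called higher; Ifit1 (0.74 ± 0.32, adjusted p = 0.134) and Usp18 (0.59 ± 0.24, adjusted p = 0.112) were not called. In the Cx3cr1 line by title, 0 of the 9 members were called by edgeR and 0 by DESeq2, 1 of them (Ifit1, -0.59 ± 0.26) had an unadjusted p under 0.05, and 12.8% of 8704 genes were called in either direction. The column names turn every sign around and call the same number of genes. The difference between the lines by title was called for 3 members, where 14.4% of 9212 genes were called higher in the Sall1 line: Ifit1 at 1.34 ± 0.42 (adjusted p = 0.0175), Usp18 at 1.13 ± 0.40 (0.0348) and Bst2 at 0.96 ± 0.22 (0.00182). By column name 0 genes were called by edgeR, with 253 at an unadjusted p under 0.05, and the 3 values were 0.15, 0.06 and 0.34 (adjusted p = 1.0 for each). By title the Ifit1 call was also lost without the Sort library of Cx3cr1 mouse 3 (1.00, adjusted p = 0.0626) or the SortIP library of Sall1 mouse 17 (1.22, 0.0581). The Usp18 call was lost in 9 of 16 fits that left out 1 library (Cx3cr1 Sort 3; Cx3cr1 SortIP 1, 2 and 4; Sall1 SortIP 9 and 17; Sall1 Sort 7, 9 and 21), at 0.70 to 1.16 with adjusted p from 0.0526 to 0.151. Without TMM scaling the calls split 999 higher to 295 lower in the Cx3cr1 line (554 to 561 with TMM), 219 to 800 in the Sall1 line (469 to 437) and 785 to 2214 for the difference (1327 to 1359), where Usp18 was not called (0.85, adjusted p = 0.1).

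Between the lines, the sum of both sorted libraries of each mouse gave a comparison that does not depend on the contradicting labels. Isg15 was lower in sorted microglia of the Sall1 line by this measure (-0.78 ± 0.19, adjusted p = 0.0384), the 1 member called of 9 where 1.05% of 9966 genes were called lower and 1.62% higher. Ifit1 (-0.96 ± 0.25, adjusted p = 0.0617) and Ifit3 (-0.67 ± 0.20, adjusted p = 0.113) were not called, and the others lay between -0.49 for Ifit2 and 0.17 for Bst2. Summed border macrophage markers ran from 328 to 452 CPM in the sorted libraries of the Cx3cr1 line and from 553 to 895 CPM in those of the Sall1 line, without overlap. Choroid plexus markers summed to 223 to 602 and 469 to 1735 CPM in the titled Sort and SortIP libraries of the Cx3cr1 line and to 1384 to 4103 and 665 to 3974 CPM in Sort and SortIP of the Sall1 line. The part of these cells in the difference was not tested. The Isg15 call was lost in 6 of the 8 fits that left out 1 mouse (all but those without Cx3cr1 mouse 4 or Sall1 mouse 9), at -0.88 to -0.60 with adjusted p from 0.0526 to 0.109. By title, 3 of 9 members were lower in Sort of the Sall1 line, where 12.0% of 8688 genes were called lower: Ifit1 (-1.60 ± 0.31, adjusted p = 0.00107), Isg15 (-1.15 ± 0.20, 0.000251) and Ifit3 (-0.73 ± 0.23, 0.0215). The Ifit3 call was lost without Sort of Cx3cr1 mouse 3 (-0.64) or 4 (-0.60) or of Sall1 mouse 7 (-0.65), with adjusted p from 0.0586 to 0.0785, and 2 to 4 members were lower with a library left out. Length adjustment added Bst2 as lower (-0.38, adjusted p = 0.0228, edgeR). By column name 1.49% of genes were called in either direction, and Isg15 was the 1 member among them (-0.86, adjusted p = 0.039, edgeR). In SortIP by title Bst2 was higher in the Sall1 line (0.68 ± 0.18, adjusted p = 0.0179), where 5.71% of 8552 genes were called higher, but not by column name (0.38, adjusted p = 0.394, with 1.13% of genes called in either direction) and not without the SortIP libraries of Cx3cr1 mouse 1 (0.60) or 4 (0.58) or of Sall1 mouse 17 (0.69) or 9 (0.54), with adjusted p from 0.0536 to 0.073. Without TMM scaling the Ifit3 call in Sort (-0.62, adjusted p = 0.0509) and the Bst2 call in SortIP (0.51, adjusted p = 0.0554) were lost, Ifit2 was lower in SortIP (-0.82, adjusted p = 0.0294), and the calls split 1454 higher to 715 lower in Sort (1035 to 1043 with TMM) and 256 to 913 in SortIP (488 to 431).

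The rest of the pathway was read from 134 listed genes, 133 of them with a row. The ligands were nearly absent: of 21 interferon genes with a row, 19 had no count in any of the 32 libraries, Ifnb1 had 9 counts in 4 libraries and Ifnz had 1. Of 62 pathway genes tested for HA over IgG in the Cx3cr1 line, 51 were higher and 2 lower, with a median of 2.83. Of 58 tested in the Sall1 line, 33 were higher and 8 lower, with a median of 0.82. The background shares called higher in these comparisons are the 28.6% and 35.2% given above, and those called lower are 36.0% and 36.1%.

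Among the receptors, 4 of 5 tested were higher in HA in the Cx3cr1 line, led by the interferon-gamma receptor chain Ifngr1 (4.72), with Il10rb at 3.35, Ifnar2 at 3.33 and Ifngr2 at 1.45, and Ifnar1 not called (0.67, adjusted p = 0.0731). In the Sall1 line 3 were higher, Ifngr1 at 2.08, Ifnar2 at 1.30 and Il10rb at 0.92, and Ifngr2 was lower (-0.82), with Ifnar1 at 0.05 (not called). Of the kinases and the factors they act on, Irf9 (3.56) and Tyk2 (1.73) were higher and Jak1 (-1.19) lower in the Cx3cr1 line, with Stat2 (-0.35) and Jak2 (-0.55) not called. In HA of the Sall1 line Irf9 was higher (1.28) and Jak1 (-1.55) and Stat2 (-1.16) were lower, with Tyk2 (-0.47) and Jak2 (0.04) not called. The other interferon regulatory factors were called higher in 5 of 5 and 4 of 5 cases, Irf8 at 5.44 and 1.68 and Irf5 at 6.17 and 1.98 in the Cx3cr1 and Sall1 lines; both are also known as factors of the macrophage lineage. Irf1 stood at 3.58 and 1.13, Irf3 at 1.37 and 0.61, and Irf2 at 2.34 and 0.12, the last of these not called.

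Sensors and adaptors were higher in 4 of 6 and 3 of 5 cases, with Tmem173, the adaptor STING, at 4.13 in the Cx3cr1 line, and Ticam1 higher (2.15) and the kinase gene Tbk1 lower (-1.57) in the Sall1 line. Feedback inhibitors were mixed: the phosphatase gene Ptpn6 was higher in both lines (4.70 and 1.42), Adar was lower in both (-0.73 and -0.46) and Ptpn2 was lower in the Sall1 line (-2.95). Of the other interferon-stimulated genes, 32 of 35 tested were higher and 0 lower in the Cx3cr1 line (median 3.13), with the immunoproteasome subunit gene Psmb8 at 4.34. In the Sall1 line 20 of 31 were higher and 2 lower (median 1.22), with Ifi27l2a at 3.39 and Herc6 at -2.78. The difference between the lines was called for 50 of 78 pathway genes, 49 smaller in the Sall1 line and 1, Ifitm1, larger, with the limit on Ifitm1 given above. Of all 12308 genes in that fit 13.7% were called lower in the Sall1 line and 18.5% higher.

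Against the sorted precipitate, 50 of 81 pathway genes tested were lower in homogenate HA and 6 higher in the Cx3cr1 line by title, where 37.5% and 32.6% of all genes were called. By column name 46 of 72 were lower and 5 higher, where 36.2% and 31.9% of all genes were called. For the Sall1 line 71 of 79 were lower and 3 higher, where 37.8% and 42.4% of all genes were called. Pathway genes tested here but not against IgG, such as Tlr7 and Ifi204 in the Sall1 line, needed their sorted-cell levels to pass the filter on low counts. They entered the test because they were higher there, so these counts of lower genes are descriptions. In sorted cells of the 2 lines, 1 of 95 pathway genes was called from the sums of both libraries besides the members, where 1.05% of all genes were called lower and 1.62% higher. That gene, Ifit3b, was lower in the Sall1 line (-0.91 ± 0.23, adjusted p = 0.0408, edgeR). Monocyte markers summed to 1.74 to 6.98 CPM in HA of the Cx3cr1 line and 3.63 to 5.35 CPM in HA of the Sall1 line, with Ccr2, Plac8 and Chil3 at 0 in both, and to 6.70 to 36.0 CPM in sorted cells. Summed border macrophage markers ran from 665 to 927 CPM in HA of the Cx3cr1 line and from 19.0 to 30.1 CPM in HA of the Sall1 line, and their part in the members' levels was not tested.

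Mouse 3 of the Cx3cr1 line stood above its group. It had the highest level of the 4 mice for 8 of 9 members in the titled Sort libraries, 8 of 9 in the titled SortIP libraries, 7 of 9 in IgG and 4 of 9 in HA. Over all genes of at least 5 CPM, mouse 3 was the highest in 21.3%, 25.4%, 24.9% and 23.9% in the same order, and over the other listed interferon-stimulated genes of that level in 34 of 57, 40 of 58, 14 of 30 and 25 of 45. Usp18 was at 69.9 CPM in the titled Sort library of mouse 3, against 37.6, 27.4 and 28.05 CPM in mice 1, 2 and 4, and at 47.0 against 26.3, 24.1 and 25.0 CPM in the titled SortIP libraries. In the IgG precipitates Usp18 was at 8.07 CPM in mouse 3 and at 1.62 to 3.18 CPM in the others. The median ratio of mouse 3 to the mean of the other 3 mice over the members was 1.57, 1.36, 1.44 and 1.29 in Sort, SortIP, IgG and HA. The pattern was noticed in these data and is a description with no test. In the Sall1 line mouse 17 was the highest for 5 of 9 members in both sorted groups and for 2 of 9 in both homogenate groups. Over all genes of at least 5 CPM, mouse 17 was the highest in 20.7% in Sort, 21.5% in SortIP, 24.4% in HA and 15.8% in IgG. Over the other listed interferon-stimulated genes of that level it was the highest in 17 of 58, 20 of 55, 10 of 28 and 8 of 27. In Sort mouse 9 was the highest for 17 of the 58 as well.

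**Figure D4:**
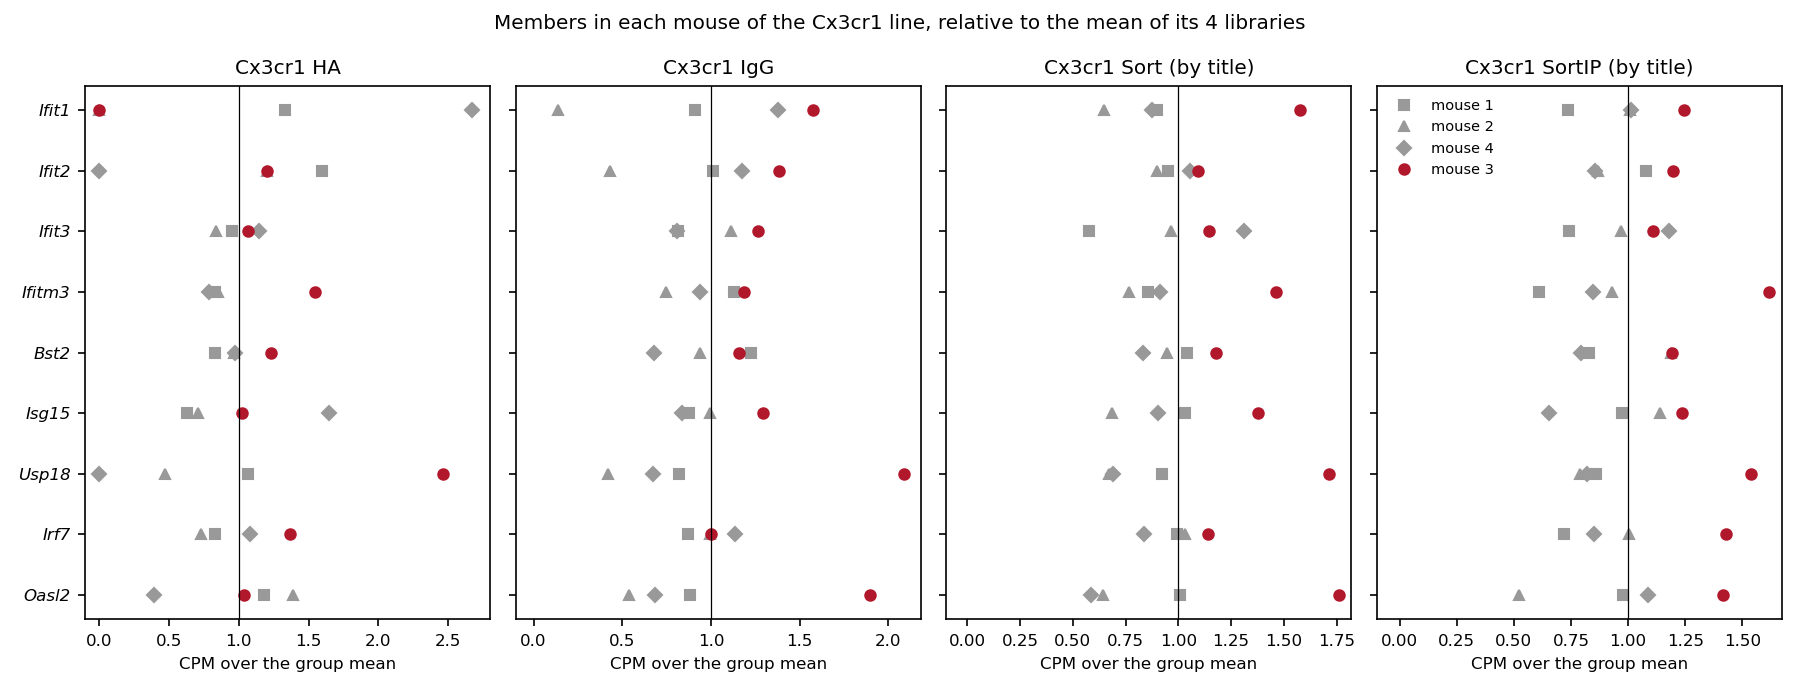
Level of each member (y axis) in each library over the mean of its group (x axis, 1 is the group mean) in the 4 groups of the Cx3cr1 line, with mouse 3 in red and mice 1, 2 and 4 in grey. Mouse 3 is the highest for 8 of 9 members in both sorted groups and for 7 of 9 in IgG.

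Across the 32 libraries the members were alike to different degrees. On log2 CPM, Pearson's r over the 36 pairs of members ran from 0.03 for Ifit1 and Ifitm3 to 0.91 for Ifit2 and Usp18 and for Ifitm3 and Bst2. Irf7 had an r of 0.79 with Oasl2, 0.75 with Isg15 and 0.73 with Bst2. These libraries share preparation, depth and mice, so the values are descriptions. Of the 7387 genes whose log2 CPM averaged 4 or more, those most like the mean of the members' z-scored levels were Rtp4 (0.98), Blnk (0.97), Tap1 (0.97), Tmem140 (0.97) and Cd14 (0.97), with Rtp4 and Tap1 also on the pathway list.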

How the data were processed

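RNA-seq of 32 libraries gave 1 deposited table of raw exon counts for 24411 genes of mm9, made by the authors from polyA RNA; bcl2fastq, HISAT 0.1.5 and HOMER are named per the submitters' processing notes. Filters, strand and the treatment of reads that match several places are not given in the sources used here. Totals ran from 249881 to 4047465 counts per library, and every level here is a count divided by that total, times 1e6 (CPM). Each deposited count column is used as it stands, and 0 columns of per-sample values were left out.

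Groups came from the sample titles. Each comparison was fitted on its own groups with edgeR 4.0.16 in R 4.3.3 (robust quasi-likelihood test, TMM scaling, filterByExpr with a minimum count of 10), with Benjamini-Hochberg adjustment over all genes tested and calls at an adjusted p under 0.05. The differences between lines are interaction terms or fits over 4 mice per line. Intervals of fold changes are the estimate ± 1.96 SE, and ratios of pooled counts have exact 95% intervals.

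The members and the gene lists were chosen with earlier results of these data known. The 9 members were named in every comparison, and pathway genes by the smallest adjusted p of their role in each direction in the comparisons of HA with IgG, with receptors, kinases, STATs and paralogs of the members; values of some listed genes are not reported here. Genes most like the members were the 5 with the highest Pearson correlation with the members' mean z-score.

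Alternatives were DESeq2 1.42.0, its size factors, no TMM scaling, no filter, a minimum count of 30, a fit over the 8 groups, a length adjustment, the mouse as a block, each library left out, and the sorted libraries of the Cx3cr1 line grouped by column name or summed per mouse. Libraries of the same mouse come from the same brain, so the mouse pairs the preparations by design; deviations of the same mouse correlated at -0.16 to 0.32 (median 0.08 over 48 pairs; other mice -0.03 over 144 pairs). No pair of replicates differed by as little as counting noise alone (ratio of chi-square to degrees of freedom 1.58 to 22.5). The fitting code was tested on simulated data. Promoter sequences are RefSeq's, in GRCm38.p6, and no coordinate was converted between builds.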

Additional observations from a re-analysis of the deposited data

Results flagged for a closer look

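Dixon's test on groups of 4 set 5 of 72 member and group pairs apart at its 95% level, where chance gives about 1 in 20. Ifitm3 was at 117.0 CPM in HA of Cx3cr1 mouse 3 with the others at 59.4 to 64.2, and Usp18 was at 46.99 CPM in the titled SortIP library of the same mouse with the others at 24.1 to 26.3. Irf7 was at 8.004 CPM, 2 counts, in SortIP of Sall1 mouse 21, the shallowest library, with the others at 37.4 to 42.9. Oasl2 was at 0.8568 CPM, 2 counts, in HA of Sall1 mouse 9 (others 3.17 to 3.30 CPM, 6 to 10 counts). It was at 0.0 in IgG of Sall1 mouse 7, the shallowest library of that group (others 3.35 to 3.95 CPM, 6 to 16 counts). Both values rest on few counts.

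Enrichment of HA over IgG was smaller in the Sall1 line for Bst2 (-2.655), Irf7 (-2.326), Isg15 (-2.219) and Ifitm3 (-1.753) by the interaction term in edgeR, in log2 units. The log2 ratio of SortIP over Sort by title was larger in the Sall1 line for Ifit1 (1.343), Usp18 (1.126) and Bst2 (0.9587). By title 2686 of 9212 genes were called in either direction. With the sorted Cx3cr1 libraries grouped by column name, 0 of the 3 differences and 0 of the 9212 genes were called. These 3 differences therefore depend on which labels are used, and the mean marker sums given above ran in the order of the column names. The cause of these differences was not tested.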

How the results depend on the processing

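The depth of the HA precipitates of the Cx3cr1 line and the low counts of Ifit1, Usp18, Oasl2 and Ifit2 there limit what can be compared, and contradicting labels limit every statement on sorted Cx3cr1 microglia by preparation. The 5 members higher in HA than IgG in the Cx3cr1 line and the 4 differences between lines in that enrichment kept direction and call under each alternative run and with each library left out. With the mouse as a replicate block alone, no member changed its call; Ifit3 in SortIP against Sort of the Cx3cr1 line moved to 0.0107, uncalled. Where a count or sign below changed, the cause was not tested.

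Counts of members called changed by over 1.5 times as follows. In HA against IgG, 1 member (Ifit1) was lower in the Cx3cr1 line with no filter and with all 8 groups in the fit; in the Sall1 line 2 were higher with length adjustment and replicate block, 2 were lower without TMM scaling and 0 were lower at a minimum count of 30, which leaves fewer members tested. In HA against SortIP, 1 was higher with length adjustment and replicate block and 0 lower at a minimum count of 30 in the Cx3cr1 line (3467 genes called in all), and 4 were lower at that minimum in the Sall1 line. For the difference in SortIP over Sort, 1 was higher with all 8 groups in the fit and 0 by column name, with or without replicate block (0 and 3 genes in all), and 1 to 4 with a library left out. In Sort between lines, 1 was lower by column name and in sums (138 and 266 genes in all; 1262 with all 8 groups in the fit). In SortIP between lines, 0 were higher without TMM scaling, by column name and in sums, 1 was lower without TMM scaling and in sums, and 0 to 1 were higher with a library left out. In sorted sums DESeq2 called 2 lower, no filter gave 3, and leaving out a mouse gave 0 to 1. Smaller changes with a library left out were 4 to 7 lower in HA of the Sall1 line against the Cx3cr1 line (5 with all libraries), 2 to 3 higher and 3 to 4 lower in HA against SortIP of the Cx3cr1 line (3 and 3), 6 to 7 lower in that of the Sall1 line (7) and 2 to 4 lower in Sort between lines (3).

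Counts of all genes called changed in IgG between lines to 2 with DESeq2 and to 0 to 1 with a library left out (0 without IgG of Cx3cr1 mouse 1). In SortIP against Sort they changed to 547 (Cx3cr1) and 561 (Sall1) with all 8 groups in the fit, and ranged with a library left out from 456 (without Sort of mouse 1) to 1387 in the Cx3cr1 line and from 393 (without Sort of mouse 17) to 785 in the Sall1 line. In SortIP between lines they changed to 1392 with no filter, 94 by column name and 266 in sums, and ranged from 469 (without SortIP of Cx3cr1 mouse 1) to 1039. In sorted sums they ranged from 150 (without Sall1 mouse 17) to 248.

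Sign changes numbered 101 over 31 member values, and 0 of them were of a called value. In HA against IgG, Ifit2 in the Cx3cr1 line came to -0.30 without TMM scaling and -0.26 with all 8 groups in the fit, Ifitm3 in the Sall1 line to -0.00439 with length adjustment and replicate block, and the difference of Ifit3 to 0.17 with all 8 groups. In IgG between lines, Isg15 came to -0.00503 (DESeq2), -0.003193 (median-ratio size factors), -0.01707 (no filter), -0.02921 (all 8 groups) and -0.08862 (length adjustment). Irf7 in HA against SortIP of the Cx3cr1 line came to 0.09888 by column name and 0.08612 with replicate block added. In SortIP against Sort of that line, grouping by column name exchanges the 2 preparations by construction, and without and with replicate block gave Ifit1 0.5911 and 0.5909, Ifit2 -0.04303 and -0.02506, Ifitm3 0.1132 and 0.1512, Bst2 0.3015 and 0.3089, Isg15 0.282 and 0.2801, Usp18 0.5262 and 0.5345, Irf7 -0.1333 and -0.1173, Oasl2 -0.05219 and -0.0228, and Ifit3 0.001209 without the block. There too Ifit3 came to 0.1235 (no TMM scaling), 0.02056 (no filter), 0.01976 (minimum count 30), 0.01011 (all 8 groups) and 0.03284 (length adjustment and replicate block), Ifit2 to -0.02889 under the last of these, and Ifitm3 to 0.01716 without TMM scaling. Without TMM scaling Oasl2 came to -0.05623 in SortIP against Sort of the Sall1 line, Ifit3 to -0.07539 and Oasl2 to -0.2308 in the difference (-0.02153 for Oasl2 with no filter), and Ifitm3 to -0.07348 and Oasl2 to -0.0636 in SortIP between lines. Between lines by column name and in sums, Sort gave 0.03347 and 0.1679 for Bst2 and -0.0834 and -0.122 for Irf7, and SortIP gave -0.03076 and -0.08687 for Ifitm3 (-0.01064 with length adjustment) and -0.1732 and -0.2277 for Usp18.

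With a library left out, values that crossed 0 ranged from -0.2505 to 0.4159 (Ifit2, HA against IgG, Cx3cr1), -0.3708 to 0.01836 (Irf7, HA against IgG, Sall1), -0.3815 to 0.0339 (Ifit3, difference in HA over IgG), -0.07757 to 0.1521 (Isg15, IgG between lines), -0.2282 to 0.2565 (Irf7, HA against SortIP, Cx3cr1) and -0.5552 to 0.006809 (Ifit3, HA against SortIP, Sall1). In SortIP against Sort they ranged in the Cx3cr1 line from -0.05561 to 0.1159 (Ifit2), -0.1884 to 0.1292 (Ifit3), -0.4946 to 0.1535 (Ifitm3), -0.1238 to 0.2704 (Irf7) and -0.1603 to 0.5057 (Oasl2), in the Sall1 line from -0.0265 to 0.4274 (Ifit3) and -0.09157 to 0.2834 (Oasl2), and in the difference from -0.01073 to 0.4401 (Ifit3) and -0.4073 to 0.2568 (Oasl2). Between lines they ranged in Sort from -0.3693 to 0.03003 (Ifitm3), -0.03155 to 0.1212 (Irf7) and -0.1431 to 0.5131 (Oasl2), in SortIP from -0.1005 to 0.4724 (Ifitm3) and -0.06251 to 0.3177 (Oasl2), and in sums from -0.2277 to 0.2471 (Ifitm3), -0.3664 to 0.1249 (Usp18), -0.2114 to 0.0712 (Irf7) and -0.1223 to 0.3422 (Oasl2).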
